A study of Rattus norvegicus with 26 samples.

Results

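Hox genes were followed in RNA of thoracic aorta from male rats of the spontaneously hypertensive strain (SHR), which inherits high blood pressure. The members were all gene probes of the array whose accession mapped to a rat symbol made of Hox, a cluster letter from a to d and a number. The rule found 20 Hox genes, on 22 probes, among 15168 named genes. They comprised 5 genes of the Hoxa cluster, 6 of Hoxb, 3 of Hoxc and 6 of Hoxd. All groups were SHR, so no normotensive strain entered a comparison. The oral treatments lasted 4 weeks and were saline (7.5 mL per kg, 8 arrays), low-dose SXC (Songling Xuemaikang capsule, a herbal preparation, 236.25 mg per kg, 6 arrays), high-dose SXC (708.75 mg per kg, 6 arrays) and, as the positive control, the angiotensin receptor blocker valsartan (21.6 mg per kg, 6 arrays). In the design text valsartan has 8 rats, of which 6 have an array among those analysed. The aortas were taken at day 28 and the RNA of each aorta was hybridised separately to a 1-colour (Cy3) Agilent rat array. The ages of the rats, and how far along the aorta the piece reached, are not given in the sources used here.

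Hox genes encode homeodomain transcription factors that give cells their place along the head-to-tail axis. Within each cluster, the order of the genes follows the order of the body regions in which they are active: low paralog numbers mark the hindbrain and neck, middle numbers the trunk, and the highest numbers the lumbar region, tail, limb ends and urogenital tract. Smooth muscle cells and fibroblasts of adult vessels keep part of this code after development, so that segments of the aorta can differ in the Hox genes they express.

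The results below turn on Hoxd13 and Hoxd12, neighbours at the end of the Hoxd cluster whose valsartan calls differed in direction. Both calls depended on gain, and that of Hoxd12 also on scaling. The results also turn on Hoxa7, the only Hox gene detected on all 26 arrays, and on Hoxa2. The promoters of these 4 genes are shown. Each is RefSeq sequence of the GRCr8 build, from 250 bases before the annotated start of the gene to 50 after it, 5′ to 3′ in the gene's own direction. Capitals mark matches, on either strand, to any of 6 short motifs. The first is the common promoter box spelled TATAAA and the second the one spelled CCAAT. A core bound by many homeodomain proteins is spelled TAATTA, and the composite bound by Pbx and Hox proteins together was searched as TGATTNAT. The core bound by Meis proteins is spelled TGACAG, and the box rich in G and C, here called the GC box, is spelled GGGCGG.
Hoxd13 (chr3:79977827-79978126, plus strand): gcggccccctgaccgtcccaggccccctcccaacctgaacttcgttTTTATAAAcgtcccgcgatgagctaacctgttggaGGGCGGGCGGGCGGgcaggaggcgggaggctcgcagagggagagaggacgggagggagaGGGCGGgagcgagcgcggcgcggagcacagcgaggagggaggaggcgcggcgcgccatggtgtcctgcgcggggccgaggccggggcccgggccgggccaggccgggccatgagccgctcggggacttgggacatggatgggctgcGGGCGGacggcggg
Hoxd12 (chr3:79984856-79985155, plus strand): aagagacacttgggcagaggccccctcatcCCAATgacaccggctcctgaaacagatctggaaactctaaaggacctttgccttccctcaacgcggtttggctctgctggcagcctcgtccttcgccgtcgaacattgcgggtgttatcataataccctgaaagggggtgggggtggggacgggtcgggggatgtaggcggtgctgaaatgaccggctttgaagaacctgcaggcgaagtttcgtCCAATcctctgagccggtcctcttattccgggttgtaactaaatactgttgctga
Hoxa7 (chr4:82648192-82648491, minus strand): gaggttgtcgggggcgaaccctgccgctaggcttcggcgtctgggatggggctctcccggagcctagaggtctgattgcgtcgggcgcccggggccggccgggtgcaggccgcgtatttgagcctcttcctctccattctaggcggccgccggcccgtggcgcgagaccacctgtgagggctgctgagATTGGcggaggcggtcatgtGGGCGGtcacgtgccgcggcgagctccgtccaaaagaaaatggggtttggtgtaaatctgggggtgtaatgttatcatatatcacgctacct
Hoxa2 (chr4:82595643-82595942, minus strand): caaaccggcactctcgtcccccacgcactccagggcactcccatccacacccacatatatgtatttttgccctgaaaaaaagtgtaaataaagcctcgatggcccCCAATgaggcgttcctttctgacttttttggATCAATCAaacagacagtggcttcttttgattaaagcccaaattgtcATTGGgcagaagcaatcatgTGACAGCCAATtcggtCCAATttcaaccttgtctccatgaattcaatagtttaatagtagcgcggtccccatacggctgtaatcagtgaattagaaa

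The neighbours Hoxd13 and Hoxd12 differed in these windows. The Hoxd13 window was 74.7% G and C with 36 CpG pairs, 5 GC boxes and 2 overlapping matches to the TATA box, one on each strand. The Hoxd12 window was 55.3% G and C with 16 CpG pairs, 2 CCAAT matches and 0 GC boxes. The Hoxa7 window (64.3% G and C, 29 CpG pairs) held 1 CCAAT and 1 GC box. The Hoxa2 window was 44.7% G and C, with 9 CpG pairs, and held 4 CCAAT matches, 1 Pbx-Hox composite and, directly beside a CCAAT, 1 Meis core.

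RefSeq promoters were at hand for 11 of the 20 genes. Their median was 62.7% G and C, against 52.3% over all 27457 promoters of the same length. CCAAT was found in 9 of the 11 and in 37.7% of all promoters, and the GC box in 5 of the 11 and in 34.9% of all. The TATA box, Pbx-Hox composite and Meis core were each found in 1 of the 11 (in 14.3%, 3.15% and 18.8% of all promoters), and TAATTA in 0 of the 11 (5.35% of all). A match describes letters in the window only.

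A probe was taken as detected on an array where the scanner software flagged it as well above background. With saline, 10 of the 20 Hox genes were detected on all 8 arrays: Hoxa2 and Hoxa7, Hoxb4, Hoxb7 and Hoxb8, Hoxc5, and Hoxd4, Hoxd9, Hoxd10 and Hoxd12. They covered 8 of the 14 genes with paralog numbers up to 9 and 2 of the 6 with higher numbers. Low-dose SXC added Hoxb3, Hoxc12 and Hoxd13 to these 10, so that 13 genes were detected on all 6 arrays, 9 of the 14 and 4 of the 6. On all 6 arrays of high-dose SXC, and likewise of valsartan, 1 gene was detected, Hoxa7. Without high-dose array 3 there were 9 such genes, and without valsartan array 1 there were 3.

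**Figure D1:**
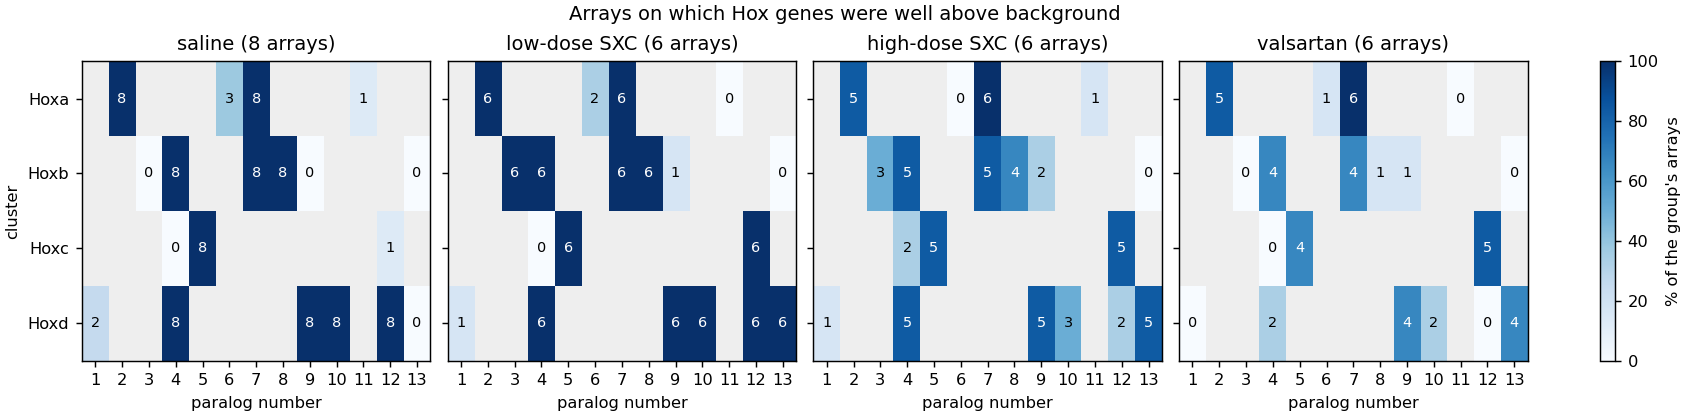
Number of arrays of each group on which each Hox gene was well above background, by cluster (rows) and paralog number (columns); colour gives the percent of the group's arrays and grey marks positions not shown. Hoxa7 is full in every panel, Hoxb13 is at 0 in every panel, and Hoxc12, Hoxd13 and Hoxb3 fill with low-dose SXC and not with saline.

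Several genes were detected rarely. Hoxb13, a marker of the tail end of the body, was detected on 0 of 26 arrays. Hoxa11 was detected on 1 saline and 1 high-dose array, Hoxc4 on 2 high-dose arrays, Hoxb9 on 1, 2 and 1 arrays of low-dose SXC, high-dose SXC and valsartan, and Hoxd1 on 2 saline, 1 low-dose and 1 high-dose array. These 5 genes were below the filter of at least 6 arrays and were not tested. The other 15 genes were tested, and the second probe of Hoxc5 also passed the filter.

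The number of Hox genes detected per array was 10 to 14 with saline, 13 to 15 with low-dose SXC, 1 to 17 with high-dose SXC and 1 to 11 with valsartan. The share of all gene probes well above background moved with it: 67.3% to 76.2%, 70.4% to 77.0%, 28.9% to 79.6% and 32.5% to 56.5%. The 6 valsartan arrays and high-dose arrays 3 to 6 had a detector gain of 323 to 325 V, the lower of 2 levels, and the other 16 had 353 to 354 V, and high-dose array 3 and valsartan array 1 had 1 Hox gene detected each. The level of the dimmest probe still well above background, here called the floor, was -6.68 to -5.90 with saline and -4.36 to -1.60 with valsartan, so a dim gene read higher on the log2 scale there without being detected. The part of gain in these detection counts was not tested. Gain entered only as a block in the fit of levels, given below.

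**Figure D2:**
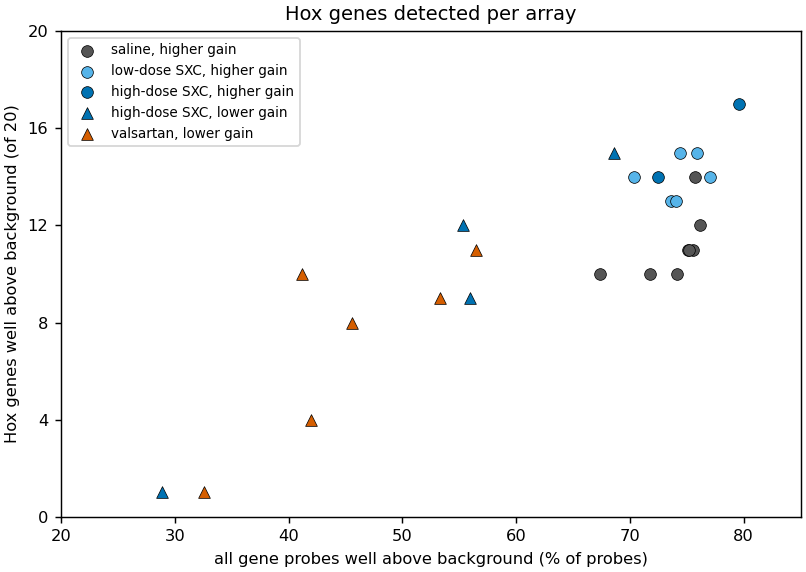
Hox genes well above background (of 20, vertical axis) against the percent of all gene probes well above background (horizontal axis); each point is 1 array, circles mark the higher and triangles the lower detector gain. The lower-gain arrays spread from 1 to 15 Hox genes, and the low-dose arrays lie at 13 to 15, against 10 to 14 for saline at a like share of all probes.

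The tissue was checked by markers fixed as lists. All 9 measured smooth muscle and all 8 measured fibroblast markers were detected on every saline and every low-dose array. Of the 9 smooth muscle markers, 2 were called higher in each comparison with saline. With low-dose SXC, high-dose SXC and valsartan, 2, 3 and 3 of them were called lower. Over all probes tested, 22.5%, 35.7% and 33.2% were called higher in the same order, and 17.1%, 21.4% and 25.2% lower. The lists of other cells are read against these shares. 8 of 8 red cell genes were called lower in all 3 comparisons, as were 9 or 10 of 11 macrophage genes and 7 or 8 of 9 white fat genes, with 0 genes of these lists called higher. Of 10 endothelial genes, 6 or 7 were lower and 2 higher. Of the 8 fibroblast markers, 3 were lower with low-dose SXC, 4 with high-dose SXC and 5 with valsartan, and 1 was higher in each. The mean level of the red cell list was 2.16 to 5.27 with saline, -1.96 to -0.55 with low-dose SXC, -2.59 to 0.07 with high-dose SXC and -1.83 to -0.39 with valsartan. Of 7 tested markers of neurons and spinal cord, 3 were called higher with low-dose SXC, 5 with high-dose SXC and 4 with valsartan. Of the 11 on the array, 4 were detected on no saline, 2 on no low-dose, 3 on no high-dose and 8 on no valsartan array. With high-dose SXC and with valsartan, 0 were detected on every array, so these calls include signals below background. The part of these cells in the Hox results was not tested. All saline arrays were scanned on 1 day, 82 days after the last treated array, so the day of scanning and the treatment cannot be told apart wherever saline is compared. In whole tissue, fewer cells of a type and less RNA per cell cannot be told apart.

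Low-dose SXC was compared with saline at like gain and like depth of detection. 6 of the 15 tested Hox genes were higher and 0 were lower (limma, Benjamini-Hochberg adjusted p under 0.05). At an unadjusted p under 0.05 the counts were also 6 and 0. Over all 23744 probes tested, 22.5% were called higher and 17.1% lower. The 6 were Hoxc12, Hoxd13, Hoxb3, Hoxc5, Hoxd4 and Hoxa2, and each was detected on all 6 low-dose arrays. Hoxd13 and Hoxb3 were detected on 0 saline arrays and Hoxc12 on 1, so these 3 passed the filter through treated arrays. With a filter of at least 20 arrays, 7 genes were tested, of which 3 were higher and 0 lower. The median log2 change of the 15 was 0.54, against 0.09 over all probes tested. Saline arrays 1 and 5, 2 and 6, and 3 and 7 deviated together over all probes (correlations 0.71, 0.66 and 0.87), so saline may be fewer than 8 independent samples. With these 3 pair averages as the saline group, 3 genes were called, Hoxc12, Hoxb3 and Hoxa2. Saline arrays 4 and 8, which did not deviate together (correlation -0.03), were left out there. The saline group then held 3 values in place of 8, here and wherever the pair averages are given below.

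Hoxc12, which lies near the tail end of the Hoxc cluster, rose most. Its level (log2 signal minus the array's 75th percentile) was -8.81 to -4.25 with saline (median -8.31) and -4.41 to -2.64 with low-dose SXC (median -2.93). It was -4.32 to -0.05 with high-dose SXC (median -1.26) and -3.13 to -1.75 with valsartan (median -2.16). With saline it was detected on 1 of 8 arrays, array 2, whose -4.25 alone overlapped low-dose and high-dose SXC. Saline and valsartan did not overlap. The log2 change against saline was 4.70 ± 0.60 (SE) with low-dose SXC (adjusted p = 8.7e-07, limma), 6.21 ± 0.60 with high-dose SXC (adjusted p = 5.9e-09, limma) and 5.49 ± 0.60 with valsartan (adjusted p = 3.2e-08, limma). Because 7 of 8 saline arrays were below detection, these changes depend on how dim signals are scaled. They were 3.51, 4.78 and 4.02 in the authors' deposited values and 1.75, 3.02 and 2.68 after normexp background correction. With high-dose array 3 and valsartan array 1 left out and all levels below the highest floor of the 2 groups raised to that floor, they were 2.25, 2.35 and 0.38, and the last was not called (adjusted p = 0.35, limma). The 3 treated groups shared the saline arrays. They did not differ from one another by the test: 1.51 ± 0.64 for high against low dose (adjusted p = 0.091, limma), 0.79 ± 0.64 for valsartan against low dose and -0.72 ± 0.64 for valsartan against high dose. Within high-dose SXC, arrays 1 and 2, scanned at the higher gain, averaged -3.26, close to the low-dose mean of -3.12, and the 4 lower-gain arrays averaged -0.79.

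Hoxd13, needed for digits and the urogenital tract, was detected on 0 of 8 saline arrays, 6 of 6 low-dose, 5 of 6 high-dose and 4 of 6 valsartan arrays. Its level was -8.70 to -7.39 with saline (median -7.85) and -6.34 to -4.78 with low-dose SXC (median -5.38). It was -4.90 to 0.06 with high-dose SXC (median -2.31) and -3.86 to 2.25 with valsartan (median -1.64). Every treated array lay above every saline array, and valsartan array 4 was the highest of all. Against the floor of the saline arrays, Hoxd13 was 2.04-fold higher with low-dose SXC (adjusted p = 0.0077, limma, for the change on this scale). This fold is no lower bound, since some of the settings below gave smaller changes. The means with high-dose SXC and valsartan include arrays without detection and read high where the floor is high. Their changes are therefore given by setting and not as a fold against the floor. With high-dose SXC the log2 change was 5.53 on this scale (adjusted p = 4.5e-07, limma), 4.23 in the authors' values, 2.59 after normexp and 1.90 with the common floor, each of them called. With valsartan it was 6.55 (adjusted p = 3.2e-08, limma), 5.46, 3.47 and 1.68 in the same order, each called, and 3.14 and not called with gain as a block (adjusted p = 0.062, limma). Within high-dose SXC, the 2 higher-gain arrays averaged -4.62, a change of 3.25 against saline, and the 4 lower-gain arrays -1.21. The low-dose call was lost in quantile-normalised values (log2 change 1.70), in the authors' values (1.41), after normexp (0.75), with a common floor (0.27) and with the saline pair averages (2.46).

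Hoxb3, a neck-level gene, was detected on 0 saline arrays and on all 6 low-dose arrays. Its level was -8.42 to -6.33 with saline and -5.77 to -4.73 with low-dose SXC, without overlap. Against the floor of the saline arrays this was 2.29-fold higher (adjusted p = 0.00035, limma, for the change on this scale). The fold is no lower bound: after normexp the low-dose log2 change was 0.73, and it was called. With a common floor the low-dose change was 0.35 and not called (adjusted p = 0.16, limma). With high-dose SXC it was detected on 3 of 6 arrays, with a log2 change of 2.32 ± 0.40 (adjusted p = 2.7e-05, limma). The 2 higher-gain arrays averaged -5.57, a change of 1.63 against saline, and the lower-gain arrays, of which 1 detected it, averaged -4.53. The high-dose call was lost in the authors' values (0.71, adjusted p = 0.052, limma) and with the common floor. With valsartan it was detected on 0 arrays, so its called log2 difference of 2.65 sets signals below background against each other and no fold is given.

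Hoxc5 and Hoxd4, both of the neck and upper trunk, were detected on all saline and all low-dose arrays. Hoxc5 was -4.77 to -4.28 with saline (median -4.42) and -4.42 to -2.26 with low-dose SXC (median -3.93). The groups overlapped by low-dose array 2 alone, and low-dose arrays 1 and 6, which shared a scan day, were the highest. The log2 change was 0.92 ± 0.35 (adjusted p = 0.041, limma), and the call was lost when any of 7 of the 14 arrays was left out (0.66 to 1.09) and with the saline pair averages (0.96). The second Hoxc5 probe, detected on 3 saline arrays, gave 2.56 ± 0.40 (adjusted p = 1.5e-05, limma). Hoxd4 was -4.56 to -4.13 with saline and -3.87 to -3.22 with low-dose SXC. The groups did not overlap, with a change of 0.79 ± 0.24 (1.73-fold, adjusted p = 0.011, limma), which was not called in quantile-normalised values (0.69), in the authors' values (0.75) or with the saline pair averages (0.75).

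Hoxa2, which patterns the hindbrain and the jaw region, was -1.74 to -0.47 with saline (median -1.12) and -0.51 to -0.11 with low-dose SXC (median -0.38). Low-dose arrays were tightly grouped and saline array 1 alone reached them. The change was 0.69 ± 0.18, or 1.61-fold (adjusted p = 0.0040, limma), and it was called in every scaling tried (0.61 to 0.70).

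**Figure D3:**
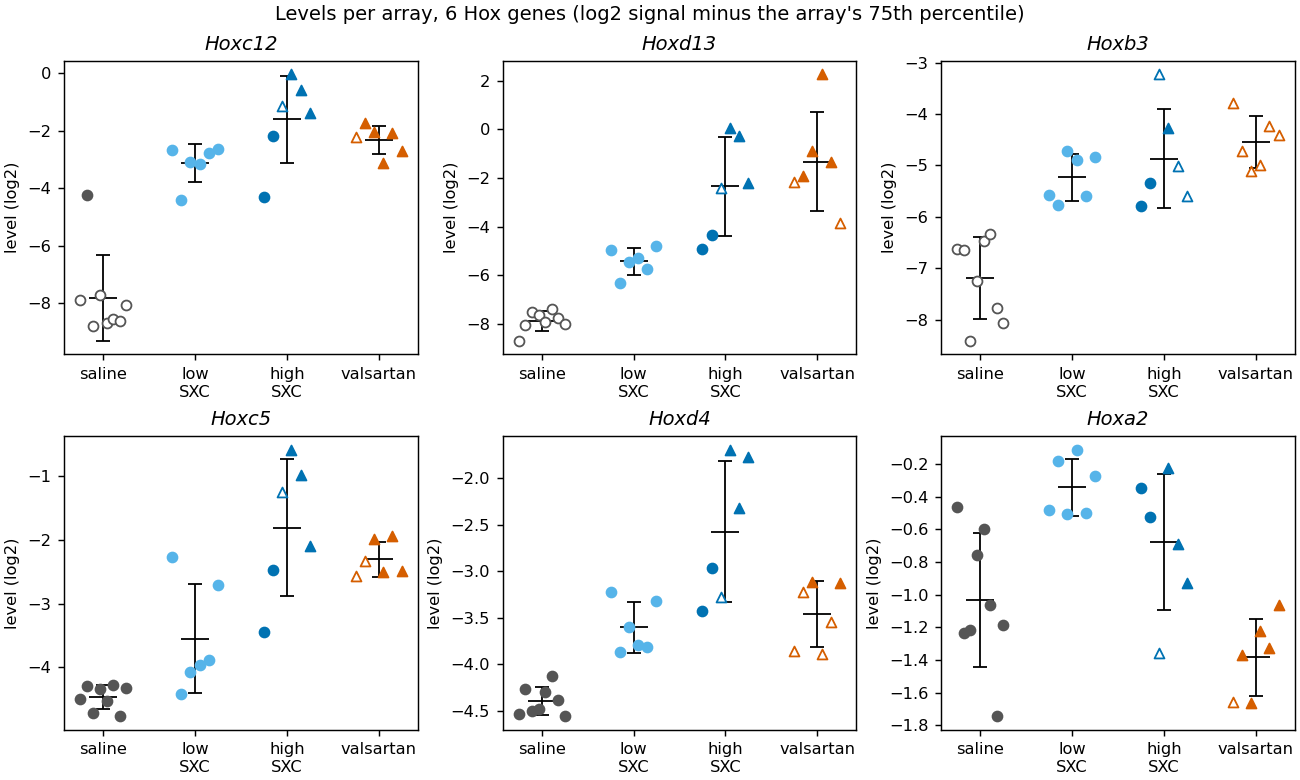
Levels of 6 Hox genes on each array (log2 signal minus the array's 75th percentile); filled symbols are well above background and open ones are not, circles mark the higher and triangles the lower gain, and bars give mean ± SD. Hoxc12 and Hoxd13 are open on nearly all saline arrays, and their highest points are lower-gain arrays.

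High-dose SXC was compared with saline next. 8 of the 15 Hox genes were called higher and 3 lower, against 35.7% higher and 21.4% lower of all probes tested. None of the 8 was detected on all 6 high-dose arrays, since array 3 detected Hoxa7 alone. The 8 included Hoxc12, Hoxd13, Hoxb3, Hoxc5, Hoxd4, Hoxb8 and Hoxb4, and the 3 were Hoxa7, Hoxb7 and Hoxd9. In quantile-normalised values the split was 5 higher and 4 lower. The median change of the 15 was 0.74 (all probes 0.25).

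Hoxa7, a trunk gene, was the only member detected on all 26 arrays and was lower with high-dose SXC. Its level was 0.48 to 1.96 with saline (median 0.90) and 0.34 to 1.76 with low-dose SXC (median 0.81). It was -0.27 to 0.26 with high-dose SXC (median -0.10) and 0.26 to 1.08 with valsartan (median 0.79). The 6 high-dose arrays lay together below all saline and all low-dose arrays, and met the valsartan arrays only at 0.26. The change against saline was -1.15 ± 0.24, or 2.22-fold lower (adjusted p = 0.00024, limma). It was -1.31 in the authors' values, -1.14 after normexp, -1.11 with a common floor and -1.21 with detector gain as a block, each of them called. High-dose arrays at higher gain averaged -0.14 and those at lower gain -0.05. Against low-dose SXC the change was -1.04 ± 0.26 (adjusted p = 0.0057, limma). On the scan day that both doses shared (2 arrays each) the means were -0.14 and 0.97, a difference of -1.11, and with scan day as a block it was not called. Low-dose SXC (-0.11 ± 0.24) and valsartan (-0.37 ± 0.24) were not called against saline. Valsartan against high-dose SXC was 0.78 ± 0.26 and was not called (adjusted p = 0.12, limma).

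Hoxb7, also a trunk gene, was lower with high-dose SXC and with valsartan. It was -1.09 to -0.38 with saline and -1.49 to -0.40 with low-dose SXC. It was -3.24 to -1.13 with high-dose SXC and -2.42 to -1.56 with valsartan. Arrays 1 and 2 of high-dose SXC, the higher-gain pair, were nearest to saline, and every lower-gain array lay below them. The change was -1.39 ± 0.27 with high-dose SXC (2.62-fold lower, adjusted p = 8.4e-05, limma) and -1.27 ± 0.27 with valsartan (2.41-fold lower, adjusted p = 0.00023, limma). With gain as a block it was -0.45 with high-dose SXC and 0.13 with valsartan, neither of them called.

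Hoxd9, of the trunk and hindlimb field, was -2.62 to -1.41 with saline and -3.16 to -1.77 with high-dose SXC. The groups overlapped, and high-dose arrays 4 and 5 lay within the saline range. The change was -0.82 ± 0.29 (adjusted p = 0.017, limma), -1.18 with gain as a block and -0.14, not called, after normexp. Saline arrays 1 and 5 were the lowest of their group, and with the saline pair averages the change was -0.81 and not called.

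**Figure D4:**
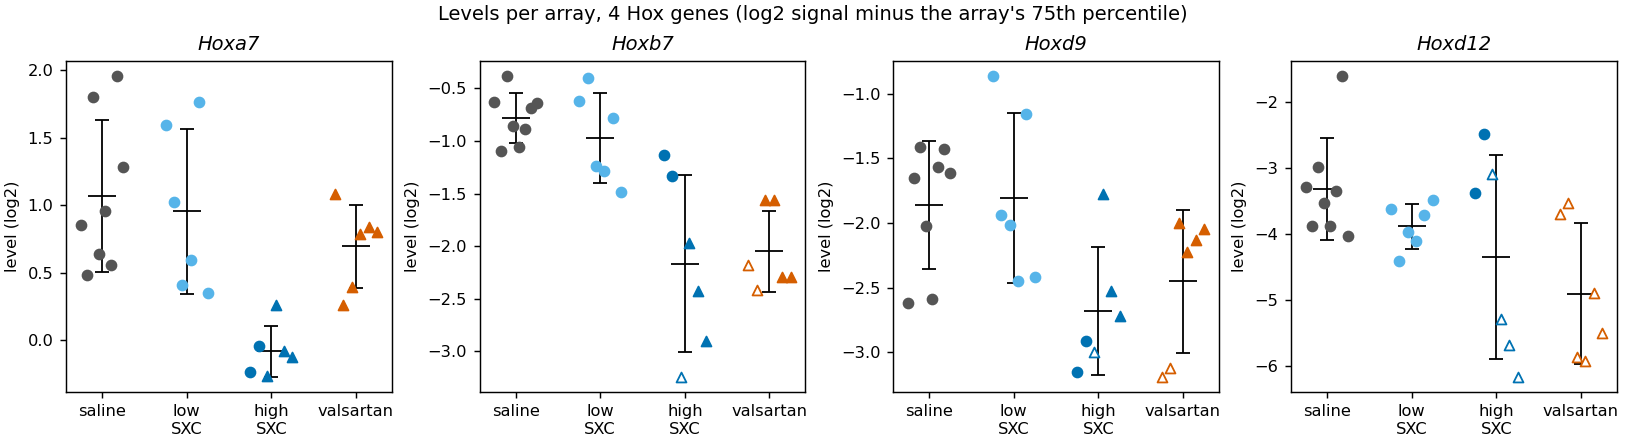
Levels of Hoxa7, Hoxb7, Hoxd9 and Hoxd12 on each array (log2 signal minus the array's 75th percentile), with the symbols and bars (mean ± SD) as for the 6 genes above. Hoxa7 is filled on every array and lowest with high-dose SXC at both gains, while the low Hoxb7 and Hoxd12 values are triangles.

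Of the other genes called higher with high-dose SXC, Hoxc5 changed by 2.67 ± 0.35 and Hoxd4 by 1.82 ± 0.24, and neither overlapped saline. Both were also called within the 2 higher-gain high-dose arrays. Hoxd4 was not called in quantile-normalised values (0.86) or in the authors' values (0.95). Hoxb8, a trunk gene also expressed in blood-forming cells, changed by 1.42 ± 0.29 and Hoxb4, a regulator of blood stem cells, by 0.74 ± 0.27, and neither was called with gain as a block (0.99 and 0.35). Hoxb4 turned to -0.068 in quantile-normalised values and to -0.090 in the authors' values, and Hoxb8 was 0.58 and 0.61 there and not called.

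Valsartan was compared with saline as the positive control. 9 of the 15 genes were called higher and 2 lower, against 33.2% and 25.2% of all probes. Hoxb3, one of the 9, was detected on 0 valsartan arrays, and none of the 9 was detected on all 6. In quantile-normalised values the split was 4 higher and 4 lower. The median change was 1.04 (all probes 0.19) and 0.04 after quantile normalisation. With gain as a block, 1 gene was called, Hoxc12 (3.02, adjusted p = 0.044, limma). The fit with a block rests on high-dose SXC, the 1 group scanned at both gains.

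Hoxd12 was called lower and its neighbour Hoxd13 higher with valsartan, on this scale. Hoxd12 was -4.03 to -1.61 with saline, detected on 8 of 8 arrays, and -4.41 to -3.49 with low-dose SXC, detected on 6 of 6. It was -6.15 to -2.49 with high-dose SXC, detected on 2 of 6, and -5.92 to -3.54 with valsartan, detected on 0 of 6. Detection with high-dose SXC was on arrays 1 and 2, the higher-gain pair. The valsartan change was -1.58 ± 0.52 (adjusted p = 0.011, limma), but the mean floor of the valsartan arrays lay above the saline mean of -3.32, so no fold is given. The change was also called lower in quantile-normalised values (-2.13, adjusted p = 0.00086, limma) and in the authors' values. It was 0.34 after normexp, 0.54 with gain as a block and -0.12 with a common floor, none of them called lower. Hoxd13 kept its valsartan call with the common floor (1.68, adjusted p = 0.025, limma). Of 5 pairs of tested genes that are neighbours in the gene table, 2 had opposite calls with valsartan, the other being Hoxb7 (lower) and Hoxb8 (higher, 1.04 ± 0.29, detected on 1 valsartan array). That pair also had opposite calls with high-dose SXC.

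The remaining calls with valsartan were dim. Hoxc5 (2.17 ± 0.35, detected on 4 arrays) did not overlap saline, and Hoxd4 (0.94 ± 0.24, detected on 2) did not either. Hoxd4 was 0.04 in quantile-normalised values, 0.13 in the authors' values and 0.00 with gain as a block, none of them called. Hoxd10 (1.44 ± 0.45) was detected on 2 valsartan arrays and Hoxa6 (1.68 ± 0.63) on 1. In both, valsartan array 5 stood highest (Hoxd10 at -0.80, Hoxa6 at -1.89). With the common floor the changes of Hoxc5, Hoxd10 and Hoxa6 were 0.34, 0.36 and 0.14, that of Hoxd4 was 0.00, and none was called. Hoxa6 turned to -0.58 in quantile-normalised values and to -0.064 with gain as a block.

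**Figure D5:**
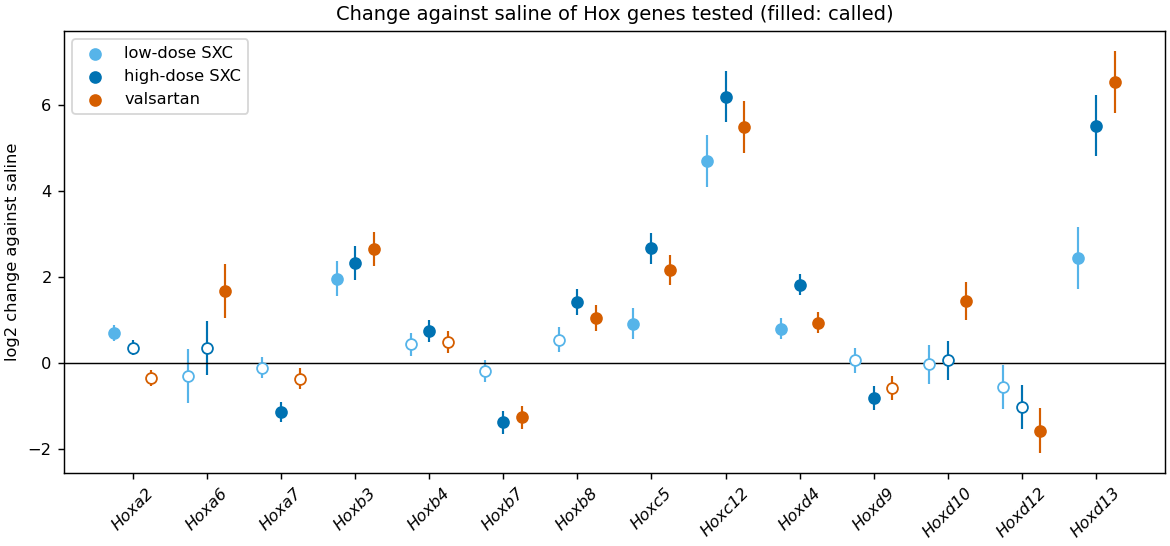
Log2 change against saline of 14 of the 15 tested Hox genes with low-dose SXC, high-dose SXC and valsartan (limma, bars are SE); filled points passed the threshold. Hoxc12 and Hoxd13 stand highest, and 5 genes are filled above 0 in all 3 comparisons, which share the saline arrays.

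Over the 3 comparisons with saline, 5 genes were called higher in each (Hoxb3, Hoxc5, Hoxc12, Hoxd4 and Hoxd13), 4 were called lower in at least 1 (Hoxa7, Hoxb7, Hoxd9 and Hoxd12), and 0 were called in both directions. Every tested member was called in at least 1. Over all probes tested, 16.7% were called higher in each, 30% lower in at least 1 and 73% in at least 1. Of the 5, 3 were called higher in each after quantile normalisation (Hoxb3, Hoxc12 and Hoxc5), 2 in the authors' values (Hoxc12 and Hoxc5), 2 with the saline pair averages (Hoxb3 and Hoxc12), 1 with gain as a block (Hoxc12) and 0 with a common floor. Hoxb3, Hoxc12 and Hoxd13 passed the filter through treated arrays, and with a filter of at least 20 arrays only Hoxc5 and Hoxd4 were called higher in each. The comparisons share their saline arrays and are not independent.

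Between the doses, 5 of the 15 genes were higher with high-dose than with low-dose SXC and 3 were lower, against 16.8% and 5.41% of all probes. The higher ones included Hoxd13 (3.08 ± 0.76), Hoxc5, Hoxd4 and Hoxb8. The second Hoxc5 probe gave 0.28 ± 0.43 and was not called (adjusted p = 0.68, limma). The lower ones were Hoxb7 (-1.20 ± 0.28), Hoxa7 and Hoxd9 (-0.87 ± 0.31, lost without any of 9 of the 12 arrays). In quantile-normalised values the split was 2 higher and 3 lower. Hoxc5 turned to -0.48 with scan day as a block. With that block, or with high-dose arrays 1 and 2 alone, 0 were called, and 2 had an unadjusted p under 0.05 in each (limma). On the shared scan day (2 arrays each) the difference was 0.26 for Hoxd13, -0.60 for Hoxc12, -0.18 for Hoxb7 and -1.40 for Hoxd9.

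Valsartan against low-dose SXC gave 4 genes higher and 2 lower, against 13.6% and 11.5% of all probes. The higher ones were Hoxd13 (4.11 ± 0.76), Hoxa6, Hoxd10 and Hoxc5, and in quantile-normalised values the split was 1 and 3. The second Hoxc5 probe, detected on 0 valsartan arrays, gave -0.18 ± 0.43 and was not called (adjusted p = 0.80, limma). The lower ones were Hoxb7 (-1.08 ± 0.28, adjusted p = 0.0074, limma) and Hoxa2. Hoxb7 was not called in quantile-normalised or the authors' values, and turned to 0.32 with gain and 0.84 with scan day as a block. Hoxc5 turned to -0.49 with gain and -1.11 with scan day as a block. Hoxa2 was -1.66 to -1.07 with valsartan and did not overlap low-dose SXC (-1.04 ± 0.20, adjusted p = 0.00059, limma). It was called in every scaling tried, and was -0.68 and not called with gain as a block. No scan day held both groups.

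Valsartan against high-dose SXC gave 0 genes higher and 0 lower at the adjusted threshold, against 0.265% and 1.1% of all probes. At an unadjusted p under 0.05 the counts were 2 and 2 (limma). Among the lower-gain arrays (6 valsartan, 4 high-dose) the mean difference was 0.75 for Hoxa7, -1.54 for Hoxc12 and -0.12 for Hoxd13.

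Other genes of the pathway were read from lists. Of 7 measured Pbx, Meis and Pknox cofactors, the partners with which Hox proteins bind DNA, 2 were higher and 1 lower in each comparison with saline. The shares of all probes called higher and lower, against which this and the next lists are read, were 22.5% and 17.1% (low-dose SXC), 35.7% and 21.4% (high-dose SXC) and 33.2% and 25.2% (valsartan). Meis1 was higher by 1.07 with low-dose SXC, 0.46 with high-dose SXC and 0.75 with valsartan. Pbx3 was lower with both doses of SXC (changes of -0.80 and -0.86). Pknox1 was called lower with valsartan but was detected on 0 valsartan arrays, so no change is given. Of 12 tested genes upstream of Hox expression, mostly of retinoic acid signalling, 1, 2 and 2 were higher and 5 lower in each of the same 3 comparisons. Crabp2, which carries retinoic acid in the cell, was lower (log2 changes of -1.42, -1.22 and -1.60), as was Cyp26b1, which breaks it down (-1.13, -1.20 and -1.09). Of 16 Polycomb and trithorax genes, which hold Hox clusters off or on, 2, 3 and 2 were higher and 4, 4 and 6 lower. Eed, a Polycomb subunit, was lower (-0.70, -1.16 and -0.86), and Cbx7 changed by 0.67, 0.30 and 0.75. The median change over all probes tested was 0.09, 0.25 and 0.19 in the same order, so the high-dose value of Cbx7 lay near it.

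Homeobox genes outside the Hox clusters were read in the same way. Of 39 tested tissue-restricted ones, 16 were higher and 1 lower with low-dose SXC, 25 and 4 with high-dose SXC, and 24 and 5 with valsartan. The 2 with the smallest p were Isl2, a motor neuron gene detected on all saline arrays (4.67, 6.45 and 5.23), and Dlx1, a forebrain gene detected on 0 saline arrays and on all treated ones. The median changes of this list were 0.79, 1.70 and 1.28, against 0.54, 0.74 and 1.04 for the Hox genes. Of the 61 listed genes on the array, 21 were detected on no saline and 16 on no low-dose array. With high-dose SXC 14 were detected on no array and 12 on every array, and with valsartan 23 and 13. The calls and medians of this list therefore include signals below background. How many of the 39 passed the filter through treated arrays was not counted.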

How the data were processed

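Per the file headers and the submitters' processing notes, the authors' scans of 26 1-colour arrays were read out by Agilent Feature Extraction 11.0.1.1. The deposited intensity used here is its processed signal, from which background and spatial trends within the array were removed, per the file headers, with no scaling between arrays. The deposited files also hold a per-spot flag for well above background (a score of 0 or 1). The authors' deposited table holds log2 values with no stated normalisation in those sources, and it served as an alternative.

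Control and outlier spots were left out and spots of a probe averaged. From log2 of that signal the array's 75th percentile was subtracted, which gives the level. Of 30367 gene probes, 23744 were well above background on at least 6 arrays and were tested. Accessions without version matched 1 GRCr8 symbol for 18005 probes and none for 12362. The array design is of an older build (rn4), so only promoters carry coordinates.

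All 6 comparisons came from 1 fit over 26 arrays with limma 3.58.1 in R 4.3.3 (lmFit, eBayes with trend, 2-sided, no covariates), adjusted by Benjamini-Hochberg over all tested probes, with calls at adjusted p under 0.05. Adjusted p-values come from that fit, and ± after a change is its SE. A gene was read by its brightest probe. Where no array of a group was well above background, the fold is the bright group's mean against the mean over dim arrays of the higher of the floor and the probe's own level. Values per array are given for Hoxc12, for genes detected on all arrays, and for called genes detected on every array of the brighter group (5 largest changes each way against saline, 3 between treated groups); any other gene was named with its values in view. The p-values set each difference against the spread between these arrays, taken as independent samples. The saline arrays that deviated together in pairs may not be independent. Results for 2 genes are not reported here, while counts include them. Members and gene lists were chosen with earlier results of these data known. The number of columns of other samples was 0. The fit was tested on simulated data. Alternatives covered background correction, normalisation, the deposited values, dim-probe filters, slide, gain, scan day and replicate number as blocks, saline pair averages, subsets of high-dose arrays, the probe rule, the variance prior and leaving out each array. Figures were drawn with matplotlib 3.10.9.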

Additional observations from a re-analysis of the deposited data

Results flagged for a closer look

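Of 80 gene and group combinations examined, 7 held an array that stood apart from the rest of its group by Dixon's criterion, in 6 Hox genes. Chance alone flags about 1 in 20 groups. Saline array 2 stood above the other saline arrays for Hoxc12 (-4.25) and for Hoxa11 (-5.53), and was the only saline array on which either was detected. Low-dose array 2 stood below its group for Hoxc12 (-4.41) and Hoxb4 (-3.52). Saline array 7 stood high for Hoxd12 (-1.61), low-dose array 1 for Hoxd1 (-3.80), and valsartan array 5 for Hoxd10 (-0.80). Without saline array 2, the Hoxc12 change with low-dose SXC was 5.21, its highest over arrays left out.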

How the results depend on the processing

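Counts of called Hox genes (11, 6, 11, 8, 6 and 0 for the high dose, the low dose and valsartan against saline, high against low dose, and valsartan against low and high dose) were recomputed under each alternative. With probes detected on at least 20 arrays, 6, 3, 3, 5 and 3 genes were called in the first 5, since only 7 were tested. With detector gain as a block they were 7, 6, 1, 0, 0 and 1, and with scan day as a block among treated groups 0, 0 and 0. Slide as a random block left 3 between the doses and 2 for valsartan against low-dose SXC. Averaging the saline pairs, without saline arrays 4 and 8, gave 3 for low-dose SXC and 7 for valsartan. High-dose arrays 1 and 2 alone gave 7 against saline, 0 against low dose and 3 for valsartan against high dose, and arrays 3 to 6 alone gave 1 for the last. Between the doses, quantile normalisation and the authors' values gave 5. Valsartan against low-dose SXC gave 12 after normexp and 10 without the filter. These further alternatives were chosen after seeing the data: without high-dose array 3 and valsartan array 1, 5 genes were called between the doses and 3 for valsartan against high dose, and with a common floor as well, 2 for valsartan against saline, 4 between the doses and 2 for valsartan against low dose. Leaving out 1 array gave 10 to 13, 5 to 6, 10 to 12, 5 to 8, 3 to 6 and 0 to 2. By the positive-and-significant flag, 6 genes were detected on all high-dose and 7 on all valsartan arrays. Leaving out 1 array gave 1 to 9 genes with high-dose SXC and 1 to 3 with valsartan.

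Called changes that reversed were Hoxd12 (0.34 after normexp, 0.54 with gain as a block), Hoxb7 (0.13 with gain) and Hoxa6 (-0.58 after quantile normalisation, -0.064 with gain) with valsartan against saline. Hoxb4 with high-dose SXC against saline became -0.068 (quantile) and -0.090 (the authors' values), and Hoxc5 between the doses -0.48 (scan day). With valsartan against low-dose SXC, Hoxb7 became 0.32 (gain) and 0.84 (scan day), Hoxc5 -0.49 and -1.11 with the same blocks, and Hoxa6 -0.19 (quantile). The cause was not tested. Over all alternatives of the called genes reported, and of Hoxc12 and Hoxa7, 1097 values kept direction and side of the threshold, 156 lost the call, 4 gained it and 13 reversed. Same-numbered arrays of different groups correlated from -0.37 to 0.28, so the numbers do not pair the samples. The replicate block gave 10, 5, 12, 6, 5 and 0 called genes. Over all probes, the share of calls that were higher was 62.5% (high dose), 56.8% (low dose) and 56.8% (valsartan) against saline, and 41.7%, 54.0% and 38.1% after quantile normalisation, which moved the median of all probes to -0.23, 0.01 and -0.30 from 0.25, 0.09 and 0.19. The share of probes detected was 28.9% to 68.6% on the lower-gain arrays and 67.3% to 79.6% on the others. The part of gain in this difference was not tested.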
